A study of Mus musculus with 30 samples.

Results

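The corticosteroid receptors, the corticotropin-releasing hormone (CRH) receptors and their related stress response genes were followed through 30 whole-brain RNA-seq libraries of male mice. The 10 genes were listed by name: Nr3c1, Nr3c2, Hsd11b1, Crhr1, Crhr2, Crhbp, Fkbp5, Zbtb16, Sgk1 and Tsc22d3. All 10 were among the 19737 genes in the data, and all 10 passed the filter on low values (a mean of at least 10) in every comparison. The 6 groups held 5 libraries each, from brains of wild-type (WT) mice and of heterozygous Arid1b+/- mice (HT) on a C57BL/6N background. Arid1b encodes a subunit of a chromatin remodeling complex, and one copy carries a germline truncating change in exon 5. The P10 WT and P10 HT groups were untreated brains taken at postnatal day 10. The P120 groups were brains of adults at day 120 whose dams had drunk 0.2% saccharin water alone (WT-Veh and HT-Veh) or with 0.1 mg/ml fluoxetine, an inhibitor of serotonin reuptake (WT-Flx and HT-Flx), from day 3 to day 21. The pups were exposed through the milk, and the animals had plain water after weaning, so no adult was on the drug when its brain was taken.

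Glucocorticoids (corticosterone in the mouse) enter cells and bind a pair of related receptors, the mineralocorticoid receptor with high affinity and the glucocorticoid receptor at higher hormone levels. The bound receptors move to the nucleus and switch genes on or off. Some of the induced genes, such as Fkbp5, feed back on the receptor, and enzymes such as 11beta-hydroxysteroid dehydrogenase set how much active hormone is present in a cell. CRH starts the hormonal stress response from the hypothalamus and also acts as a transmitter elsewhere in the brain.

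The depth of the libraries is unknown, since the values are normalised read counts that are not whole numbers, so no counting interval is given. Summed normalised counts ran from 31578614 to 41801037 per library, and those of HT-Flx (37083545 to 41522113) did not overlap those of WT-Flx (32484635 to 33588499). Arid1b itself was used to check the labels. It lay at 3164 to 3309 in P10 WT and at 2162 to 2334 in P10 HT, and at 2961 to 3392 in WT-Flx and 2164 to 2616 in HT-Flx. The library labelled WT-Veh replicate 2 had 2320 and the library labelled HT-Veh replicate 2 had 3361, each against its label, where the other 4 libraries had 3036 to 3229 (WT-Veh) and 1973 to 2480 (HT-Veh). HT-Veh and WT-Veh were therefore compared without both, as in the sample list the study gives for that comparison, and with them as an alternative. The study's figure captions state 5 mice for each of these groups. The other comparisons hold all 5 libraries per group, with values without both of these given where a call changed. The column names of pups and adults carry different prefixes, whose meaning is not given in the sources used here, so that age, vehicle rearing and whatever the prefix marks cannot be told apart. Nothing says that libraries of a group came from separate litters, so p-values measure the spread between these libraries.

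Genes also differed between groups by base composition. In HT-Flx against WT-Flx, the tenth of genes with the lowest transcript GC content (median 39.2%) had a median log2 difference of -0.93, and the tenth with the highest (median 59.8%) had 0.74. In P10 HT against WT these medians were 0.05 and -0.06, and in HT-Veh against WT-Veh -0.02 and 0.11. They were -0.53 and 0.36 in HT-Flx against HT-Veh, and 0.30 and -0.27 in WT-Flx against WT-Veh. Between adults and pups they were -0.30 and 0.28 in WT and -0.45 and 0.44 in HT. Nr3c1 (42.2% GC, percentile 13.9 of all genes) and Crhr1 (58.2%, percentile 90.7) lie near opposite ends of the range of GC content. The members' values are therefore also given after a correction of each library for the mean deviation of genes of like GC content and transcript length, a setting chosen after seeing the data.

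**Figure D1:**
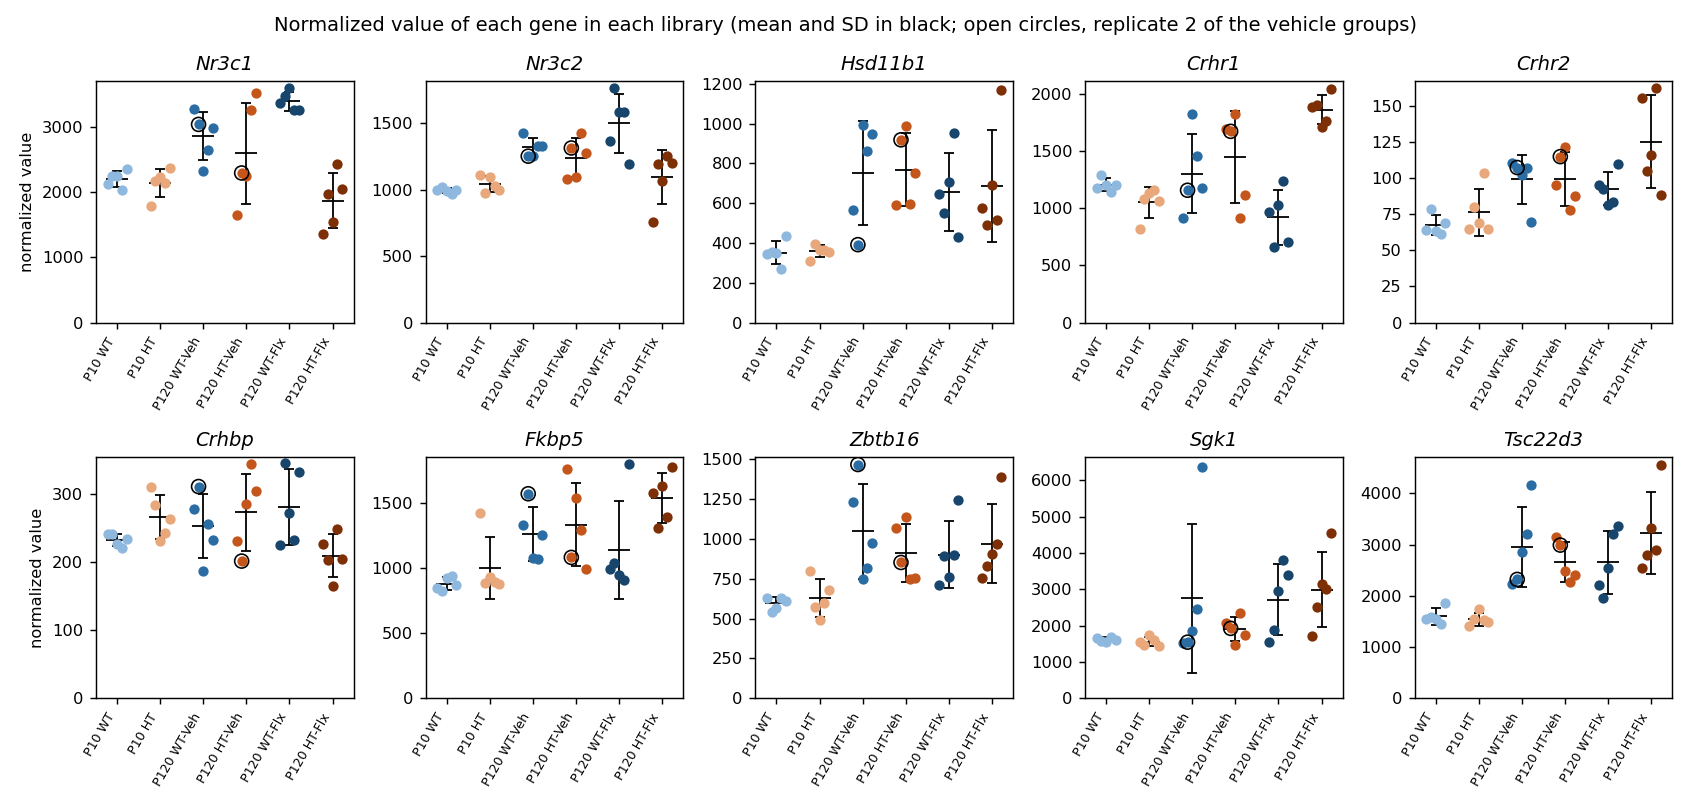
Normalised read count (vertical axes, starting at 0) of the 10 genes in each of the 30 libraries, by group, with the mean and SD in black and n = 5 per group. Open circles mark the libraries labelled WT-Veh and HT-Veh replicate 2. Nr3c1 lies at 3252 to 3592 in WT-Flx and at 1358 to 2429 in HT-Flx, and Sgk1 of WT-Veh has 1 library at 6363.

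Per kilobase of exon, Tsc22d3 was the most abundant member in adult WT-Veh brain, at 681 normalised counts per kilobase, followed by Sgk1 (561), Crhr1 (530) and Nr3c1 (372). Nr3c2 (203), Zbtb16 (198), Hsd11b1 (177), Crhbp (141) and Fkbp5 (133) lay lower, and Crhr2 was lowest at 19.4. Neighbours in this order overlapped in their ranges over 5 libraries, except Nr3c1 above Nr3c2 and Fkbp5 above Crhr2. As these are whole brains, fewer cells that express a gene and less RNA per cell cannot be told apart.

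Nr3c1 (chromosome 18, 39410545 to 39519421, minus strand, GRCm38) encodes the glucocorticoid receptor. In P10 WT its normalised counts were 2128, 2240, 2240, 2035 and 2350, and in P10 HT they were 1790, 2168, 2227, 2133 and 2364. The pup groups overlapped, with means of 2198 ± 121 (SD, n = 5) and 2136 ± 213 (SD, n = 5). In adults, WT-Veh gave 3281, 3039, 2326, 2653 and 2990, and HT-Veh gave 1644, 2293, 2244, 3262 and 3526. HT-Veh thus held both the lowest and the highest value of the vehicle groups. The WT-Flx libraries had 3369, 3478, 3592, 3265 and 3252, and those of HT-Flx had 1358, 1975, 1536, 2429 and 2054. Every WT-Flx library lay above every HT-Flx library.

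Of the 10 genes, 5 passed the threshold (adjusted p under 0.05, limma with Benjamini-Hochberg adjustment over all genes) in HT-Flx against WT-Flx, where 63.7% of the 17799 tested genes did, so that the members' share did not exceed that of all genes. Crhr1 and Fkbp5 were higher and Nr3c1, Nr3c2 and Crhbp lower, where 33.1% of all genes were higher and 30.5% lower. Nr3c1 was lower in HT-Flx by a log2 difference of -0.89 (SE 0.137, limma adjusted p = 0.000149, exact two-sided permutation p = 0.00794, the smallest that 5 against 5 allows). Its groups did not overlap, as was the case in this direction for 22.9% of all genes tested. Without any 1 library the difference stayed between -0.99 and -0.78 and past the threshold. After the GC and length correction it was -0.03 (limma adjusted p = 0.731).

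Between fluoxetine and vehicle groups of the same genotype, Nr3c1 passed the threshold in neither genotype. None of the 10 genes passed in HT-Flx against HT-Veh by limma, where 0% of 17676 genes did, and 4082 genes (23.1%) and 2 members, Sgk1 and Crhr1, had an unadjusted p under 0.05. Nr3c1 had a log2 difference of -0.45 there (SE 0.218, limma adjusted p = 0.216) and 0.02 after the GC and length correction. In WT-Flx against WT-Veh, 0 of the 10 genes and 0% of 17865 genes passed by limma, and 4504 genes (25.2%) and 2 members, Nr3c1 and Crhr1, had an unadjusted p under 0.05. Nr3c1 had 0.26 there (limma adjusted p = 0.126, exact two-sided permutation p = 0.0238), and 0.31 with adjusted p = 0.0491 without WT-Veh replicate 1. After the correction it was 0.01 (adjusted p = 0.949). These comparisons share their groups with the one before, so they are not independent of it.

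The difference between the fluoxetine effects of the genotypes was tested as an interaction, in which 27.3% of 17796 genes passed (15.8% higher and 11.5% lower) and 2 of the 10 members did, 1 in each direction. Nr3c1 had an interaction of -0.70 on the log2 scale (SE 0.248, limma adjusted p = 0.0430). The call was lost without any 1 of 13 of the 20 libraries (HT-Flx replicates 1, 2 and 3, all 5 of WT-Flx, HT-Veh replicates 4 and 5, and WT-Veh replicates 2, 3 and 4), with adjusted p up to 0.0928 without HT-Veh replicate 5. With the 4 vehicle libraries per group whose Arid1b matched their labels, the interaction was -0.76 with adjusted p = 0.0628, and after the GC and length correction it was 0.02.

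Nr3c2 (chromosome 8, 76899442 to 77245012) encodes the mineralocorticoid receptor. P10 WT libraries had 1000, 1016, 992, 966 and 999 normalised counts, and those of P10 HT 1112, 977, 1095, 1026 and 996. Adult libraries had 1427, 1251, 1250, 1330 and 1330 in WT-Veh and 1082, 1312, 1096, 1425 and 1275 in HT-Veh. The WT-Veh libraries all lay above the P10 WT libraries, as in this direction for 22.6% of all genes tested. With fluoxetine, WT-Flx had 1366, 1765, 1585, 1580 and 1191, and HT-Flx had 755, 1191, 1062, 1255 and 1201. Nr3c2 was lower in HT-Flx than WT-Flx by a log2 difference of -0.46 (SE 0.147, limma adjusted p = 0.0149), with overlapping groups, and had -0.12 (adjusted p = 0.398) after the correction. Its interaction was -0.37 (limma adjusted p = 0.127). Exons of a noncoding gene, Gm10649, overlap Nr3c2 on the opposite strand, and the strand setting of the counting is not given in the sources used here. None of the other 9 members has an exon overlap.

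Both receptor genes were higher in adult than in pup brain in WT. Of the 10 members, 7 were higher in WT-Veh at P120 than in P10 WT and none was lower, where 58.3% of 17927 genes passed, 28.9% being higher and 29.4% lower in adults. Nr3c1 was higher by 0.37 (SE 0.0884, limma adjusted p = 0.00294) and Nr3c2 by 0.40 (SE 0.0609, limma adjusted p = 8.88e-05). In HT-Veh against P10 HT, 3 members passed, all higher, where 51.1% of 17989 genes passed, 25.8% being higher and 25.3% lower. Nr3c1 (0.23, limma adjusted p = 0.306) and Nr3c2 (0.24, limma adjusted p = 0.0742) were not among them, though Nr3c2 passed without HT-Veh replicate 1 (0.29, adjusted p = 0.0358) or replicate 3 (0.29, adjusted p = 0.0358). After the correction both receptors passed in both genotypes, with Nr3c1 at 0.70 in WT and 0.74 in HT and Nr3c2 at 0.57 and 0.50. The difference between the age effects of the genotypes was past the limma threshold for 0 of the members and 0% of 17978 genes (612 genes, 3.4%, and none of the members at an unadjusted p under 0.05). Choroid plexus marker sums were also higher in adults (12027 to 16395 in P10 WT and 23595 to 35095 in WT-Veh, 10 of 10 markers present), as were sums of time-of-day genes (16352 to 19239 and 38418 to 44494). Sums of astrocyte (107595 to 131939 and 138331 to 172685), glutamatergic (91700 to 104405 and 130775 to 187515) and GABAergic neuron markers (29180 to 32044 and 36112 to 45429) and of activity-induced genes (7964 to 12677 and 21901 to 36453) were likewise higher in every WT-Veh library. Those of mural and leptomeningeal markers were lower (15704 to 36725 and 7525 to 8372). Single genes of some lists were split. Past the limma threshold in WT, 3 glutamatergic markers were higher and 4 lower, 4 and 2 of GABAergic neurons, and 5 and 1 of astrocytes. For choroid plexus markers these counts were 7 and 1, for time-of-day and activity-induced genes 9 and 0 each, and for mural and leptomeningeal markers 0 and 8. The part of the marker sums in these results was not tested.

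**Figure D2:**
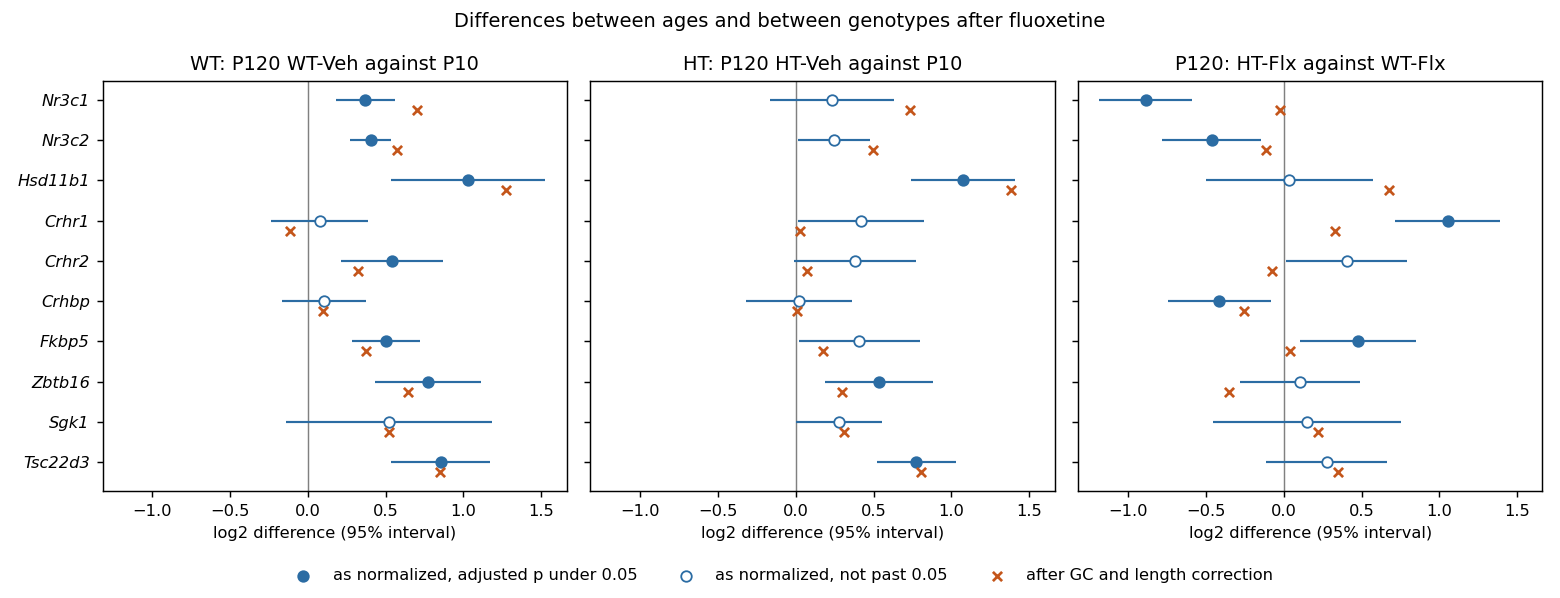
Log2 difference (horizontal axis) of each gene between ages in WT and HT and between HT-Flx and WT-Flx, with 95% intervals. Filled circles passed the adjusted threshold, open circles did not, and crosses are the values after the GC and length correction. In HT-Flx against WT-Flx the circle of Nr3c1 lies at -0.89 and its cross at -0.03, and in WT the circle of Hsd11b1 lies at 1.03.

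Hsd11b1 (chromosome 1, 193221634 to 193264075) encodes 11beta-hydroxysteroid dehydrogenase type 1, which regenerates active corticosterone inside cells. It had the largest log2 difference between ages of the 10 members in both genotypes. P10 WT had 344, 353, 350, 270 and 434 normalised counts, and P10 HT 311, 394, 363, 366 and 355. WT-Veh had 565, 391, 991, 864 and 948, and HT-Veh 592, 918, 989, 595 and 750. The 391 came from the library labelled WT-Veh replicate 2, the only WT-Veh library within the range of P10 WT. The adult excess was 1.03 in WT (SE 0.229, limma adjusted p = 0.00177) and 1.07 in HT (SE 0.156, limma adjusted p = 0.000104). Without the doubted libraries it was 1.25 in WT and 1.00 in HT, and after the correction 1.27 and 1.39, each past the threshold. Between HT-Flx and WT-Flx, at 687 ± 280 and 657 ± 195 (SD, n = 5), the difference was 0.04 (limma adjusted p = 0.907). After the correction it was 0.67 (adjusted p = 0.0383), and Hsd11b1 was then the 1 member past the threshold.

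Crhr1 (chromosome 11, 104132855 to 104175523) encodes the main brain receptor for CRH. The P10 WT libraries had 1173, 1293, 1207, 1143 and 1204 normalised counts, and those of P10 HT 819, 1084, 1133, 1158 and 1061. In P10 HT, replicate 1 lay low, at 819. The log2 difference was -0.21 (SE 0.0824, limma adjusted p = 0.355, exact two-sided permutation p = 0.0159), and it was -0.12 without that library. None of the 10 members passed at P10, where 0.0224% of 17896 genes did, and 2 members, Crhr1 and Crhbp, were among the 2249 genes (12.6%) with an unadjusted p under 0.05. Blood marker sums in these groups did not overlap (5271 to 8455 in HT and 10393 to 13185 in WT, 6 of 6 markers present). Sums of mural and leptomeningeal markers narrowly did not overlap either (12767 to 15699 in HT and 15704 to 36725 in WT). Their part in the result was not tested.

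In adults, WT-Veh had 911, 1157, 1820, 1455 and 1174 for Crhr1, and HT-Veh 1696, 1672, 1828, 914 and 1120. WT-Flx had 966, 657, 1027, 1239 and 705, and HT-Flx had 1885, 1903, 1711, 1767 and 2043. All HT-Flx libraries lay above all WT-Flx libraries, as for 25.6% of tested genes in this direction. Crhr1 was higher in HT-Flx than in WT-Flx by 1.06 (SE 0.156, limma adjusted p = 0.000112, exact two-sided permutation p = 0.00794), and it stayed past the threshold without any 1 of the 10 libraries. After the correction the difference was 0.33 and no longer past the threshold (limma adjusted p = 0.123). Against vehicle, Crhr1 had 0.41 in HT (limma adjusted p = 0.215) and -0.50 in WT (limma adjusted p = 0.156), and 0.08 and -0.24 after the correction (adjusted p = 0.760 and 0.609). Its interaction was 0.92 (SE 0.288, limma adjusted p = 0.0353), a call lost without any 1 of 9 of the 20 libraries (HT-Flx replicate 1, WT-Flx replicates 2, 3 and 5, HT-Veh replicates 4 and 5, and WT-Veh replicates 2, 3 and 4), with adjusted p up to 0.0771 without HT-Veh replicate 5. It was also lost with 4 vehicle libraries per group (1.01, adjusted p = 0.0576) and after the correction (0.31, adjusted p = 0.402). With age Crhr1 had 0.08 in WT (limma adjusted p = 0.673) and 0.42 in HT (limma adjusted p = 0.0779). The time-of-day gene sums did not overlap between HT-Flx (46908 to 54614) and WT-Flx (33265 to 40553). Sums of oligodendrocyte (258914 to 288547 and 186396 to 247083), microglia (10539 to 16462 and 8588 to 10518), mural and leptomeningeal (9702 to 10599 and 7088 to 8812) and GABAergic neuron markers (41549 to 49292 and 36140 to 41422) also lay higher in all HT-Flx libraries, with 10 of 10 genes of each list present. Single genes of these lists were split. Past the limma threshold, 4 oligodendrocyte markers were higher and 3 lower, and 5 and 1 of microglia. For mural and leptomeningeal markers these counts were 5 and 2, for GABAergic neurons 4 and 2, and for time-of-day genes 5 and 1. Over all genes, 33.1% were higher and 30.5% lower. The sums are not corrected for GC content, and their part in the results of this comparison was not tested.

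**Figure D3:**
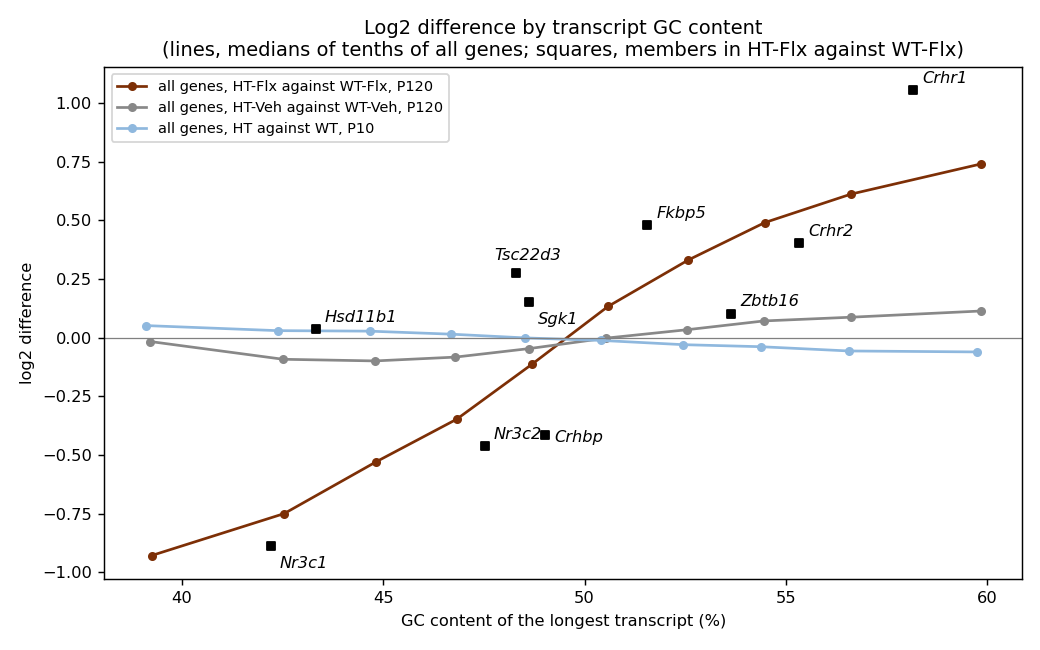
Log2 difference (vertical axis) against GC content of the longest transcript in percent (horizontal axis). Lines join the medians of 10 equal groups of all genes ordered by GC content for HT-Flx against WT-Flx, HT-Veh against WT-Veh and P10 HT against WT, and squares are the 10 members in HT-Flx against WT-Flx. The HT-Flx line runs from -0.93 to 0.74, and Nr3c1 and Crhr1 lie near its low and high ends.

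Crhr2 (chromosome 6, 55090049 to 55133016) encodes the second CRH receptor, which prefers urocortins, and was the least abundant member. It ranged from 61.0 to 78.4 normalised counts in P10 WT (median 64.3) and from 64.8 to 103 in P10 HT (median 69.0). In adults it ranged from 69.4 to 110 in WT-Veh (median 107), from 77.7 to 121 in HT-Veh (median 95.1), from 81.2 to 110 in WT-Flx (median 92.4) and from 88.1 to 162 in HT-Flx (median 116). The groups overlapped in each pair that was compared here. It was higher in adult WT by 0.54 (SE 0.152, limma adjusted p = 0.00813), which became 0.32 (adjusted p = 0.0648) after the correction, and it had 0.38 in HT (limma adjusted p = 0.0977). HT-Flx against WT-Flx gave 0.40 (limma adjusted p = 0.0646), 0.52 without HT-Flx replicate 5 (adjusted p = 0.0171) and -0.07 after the correction.

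Crhbp (chromosome 13, 95431371 to 95444924) encodes the secreted protein that binds CRH and limits its action. It ranged from 220 to 241 in P10 WT and from 231 to 310 in P10 HT, a log2 difference of 0.19 (limma adjusted p = 0.395). It was at 187 to 312 in WT-Veh, 202 to 344 in HT-Veh, 225 to 346 in WT-Flx and 165 to 250 in HT-Flx, with overlap throughout. It was lower in HT-Flx than in WT-Flx by a log2 difference of -0.41 (SE 0.154, limma adjusted p = 0.0315). The call was lost without any 1 of 6 of the 10 libraries (replicates 2, 3 and 5 of either group, adjusted p up to 0.0827) and after the correction, which left -0.26. It did not pass with age in either genotype (0.10 in WT and 0.02 in HT).

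The remaining 4 members are induced by glucocorticoids in many tissues. Fkbp5 encodes a cochaperone that lowers the hormone affinity of the glucocorticoid receptor, Zbtb16 a transcriptional repressor, Sgk1 a kinase that regulates ion channels, and Tsc22d3 the leucine zipper protein GILZ. Promoter windows from RefSeq (GRCm38.p6, 250 bases before to 50 after each start) were found for 8 of the 10 members, 15 windows in all. They were searched on both strands for the glucocorticoid response element, here the hexamers AGAACA and TGTTCT with any 3 bases between them, for a looser core of it in which its less conserved bases are free, and for either hexamer alone. The element holds its looser core and both hexamers, so matches overlap. The Sgk1 window with the full element and the Tsc22d3 window with a hexamer are printed, since these genes varied together in the adult libraries, each 5′ to 3′ on the strand of its gene, in lower case with matches in capitals.

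Sgk1, chr10:21993640-21993939, plus strand: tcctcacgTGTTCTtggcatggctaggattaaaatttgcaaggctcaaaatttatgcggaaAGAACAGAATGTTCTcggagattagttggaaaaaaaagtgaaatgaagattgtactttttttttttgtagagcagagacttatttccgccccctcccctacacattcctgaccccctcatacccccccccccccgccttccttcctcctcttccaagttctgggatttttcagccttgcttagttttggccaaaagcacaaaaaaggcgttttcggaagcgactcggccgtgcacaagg
Tsc22d3, chrX:140600473-140600772, minus strand: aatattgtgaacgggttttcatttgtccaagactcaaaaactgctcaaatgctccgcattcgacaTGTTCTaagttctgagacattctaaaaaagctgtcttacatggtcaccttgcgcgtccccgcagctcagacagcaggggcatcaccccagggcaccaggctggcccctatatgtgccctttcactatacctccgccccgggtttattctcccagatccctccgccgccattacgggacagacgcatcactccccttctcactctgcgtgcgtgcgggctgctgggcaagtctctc

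The Sgk1 window holds the full element as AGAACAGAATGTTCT, which begins at position -189 relative to the start, and a single hexamer that begins at -242. Of 32851 mouse windows of this length, 3 held the full element (0.00913%), 156 the looser core (0.475%) and 6233 a hexamer (19.0%). The Tsc22d3 window holds a hexamer that begins at -185. Hexamers were found in 4 of the 15 member windows (26.7%), 3 of them of Sgk1, and the windows of Fkbp5, Nr3c2, Crhr1, Crhr2, Crhbp and Hsd11b1 held no match. A match describes letters only, and no match says nothing about the receptor.

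Sgk1 (chromosome 10, 21882184 to 21999903) was even across the pups and uneven across the adults. P10 WT had 1670, 1580, 1557, 1695 and 1608 normalised counts, and P10 HT had 1552, 1470, 1738, 1598 and 1424. WT-Veh had 1530, 1543, 1864, 2449 and 6363, and HT-Veh had 2070, 1923, 1465, 2342 and 1745. WT-Veh replicate 5 lay far above the other WT-Veh libraries, and the rest of both groups overlapped. WT-Flx had 1555, 1867, 2948, 3817 and 3386, and HT-Flx had 1712, 2523, 3142, 3018 and 4536. The pooled SD of log2 values within groups was 0.0872 at P10 and 0.586 at P120, a ratio of 6.73, where the median ratio over 17948 genes was 1.90. Sgk1 passed in none of the comparisons. It had 0.52 with age in WT (limma adjusted p = 0.159), 0.16 without WT-Veh replicate 5, and 0.28 in HT (limma adjusted p = 0.0834), 0.37 with adjusted p = 0.0137 without HT-Veh replicate 3 and 0.31 with adjusted p = 0.0241 after the correction. It had 0.59 in HT-Flx against HT-Veh (limma adjusted p = 0.215, exact two-sided permutation p = 0.0556).

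Tsc22d3 (chromosome X, 140539528 to 140600659) was higher in adults of both genotypes. P10 WT had 1543, 1583, 1553, 1444 and 1867, and P10 HT 1405, 1551, 1743, 1536 and 1480. WT-Veh had 2227, 2320, 2863, 3202 and 4164, and HT-Veh 3156, 2990, 2478, 2267 and 2397. Adults and pups did not overlap in either genotype, which in this direction held for 22.6% of all genes in WT and 20.4% in HT. The excess was 0.85 in WT (SE 0.147, limma adjusted p = 0.000260) and 0.78 in HT (SE 0.118, limma adjusted p = 0.000149), and 0.85 and 0.80 after the correction. The fluoxetine groups overlapped, at 2657 ± 617 in WT-Flx and 3220 ± 799 in HT-Flx (SD, n = 5), with a log2 difference of 0.28 (limma adjusted p = 0.193).

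Fkbp5 (chromosome 17, 28399094 to 28517527) had 847, 828, 924, 937 and 871 in P10 WT and 1425, 883, 933, 893 and 875 in P10 HT. The 1425 came from the P10 HT library that was lowest for Crhr1, and without it the log2 difference between the pup groups was 0.02 in place of 0.16. Adults had 1335, 1572, 1078, 1069 and 1255 in WT-Veh and 1765, 1083, 1538, 1297 and 994 in HT-Veh. Every WT-Veh library lay above every P10 WT library, as in this direction for 22.6% of all genes tested. The excess was 0.50 (SE 0.102, limma adjusted p = 0.000895). In HT the excess was 0.41 (limma adjusted p = 0.0739), and 0.54 with adjusted p = 0.0180 without P10 HT replicate 1 and 0.51 with adjusted p = 0.0301 without HT-Veh replicate 5. After the GC and length correction the excess was 0.37 in WT (limma adjusted p = 0.0145) and 0.17 in HT (limma adjusted p = 0.358). WT-Flx had 992, 1037, 946, 905 and 1804, and HT-Flx 1575, 1309, 1635, 1393 and 1781. In WT-Flx, 1 library at 1804 lay above all of HT-Flx and the other 4 lay below. Fkbp5 was higher in HT-Flx by 0.48 (SE 0.172, limma adjusted p = 0.0272), 0.66 without WT-Flx replicate 5. The call was lost without any 1 of 6 other libraries (HT-Flx replicates 3 and 5 and WT-Flx replicates 1, 2, 3 and 4, adjusted p up to 0.0666), and 0.04 was left after the correction.

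Zbtb16 (chromosome 9, 48654297 to 48836222) had 629, 541, 564, 633 and 613 in P10 WT and 802, 574, 491, 597 and 682 in P10 HT. WT-Veh had 1230, 1468, 750, 818 and 976, and HT-Veh 1072, 853, 1139, 746 and 758. All WT-Veh libraries lay above all P10 WT libraries, as in this direction for 22.6% of all genes tested. The excess was 0.77 (SE 0.157, limma adjusted p = 0.000963). The HT groups overlapped in 1 pup library, replicate 1 with 802, and the excess was 0.53 (SE 0.161, limma adjusted p = 0.0139), or 0.29 (adjusted p = 0.0801) after the correction. WT-Flx ranged from 709 to 1246 and HT-Flx from 754 to 1392, with a log2 difference of 0.10 (limma adjusted p = 0.635). After the correction it changed sign, to -0.35 (limma adjusted p = 0.164).

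HT-Veh and WT-Veh, compared over replicates 1, 3, 4 and 5, gave no member past the limma threshold, where 0% of 17784 genes passed and 229 genes (1.29%) and none of the members had an unadjusted p under 0.05. The members' log2 differences lay between -0.46 for Sgk1 and 0.29 for Crhbp. The Sgk1 value was -0.03 without WT-Veh replicate 5. With all 5 libraries per group, 0 members passed, and Crhr2 (0.0018 in place of -0.02) and Hsd11b1 (0.08 in place of -0.20) changed sign. With 4 against 4 libraries the smallest exact permutation p is 0.0286.

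Among the 4 induced members, 2 pairs varied together between animals of the adult groups past the threshold. Over the 20 P120 libraries, as log2 deviations from the group mean, Sgk1 and Tsc22d3 had r = 0.84 and rho = 0.81 (permutation p = 0.00011 and 0.00022, adjusted p = 0.00132 and 0.00264 over 12 relations). Their deviations had the same sign in 17 of 20 libraries, and r was 0.80 without the 2 libraries farthest from the median of Sgk1. Fkbp5 and Zbtb16 had r = 0.77 and rho = 0.61 (permutation p = 0.00029 and 0.00634, adjusted p = 0.00174 and 0.0380), the same sign in 14 of 20 libraries, and r = 0.73 without the 2 farthest. The 4 relations between members of different pairs had r between 0.07 and 0.27 and did not pass (adjusted permutation p from 0.621 to 0.790). In WT libraries alone the pairs had r = 0.91 and 0.84, and after the GC and length correction 0.84 and 0.81. Without the libraries labelled WT-Veh and HT-Veh replicate 2 they had r = 0.84 and 0.75, and the 4 relations across pairs then had r between 0.18 and 0.47. None of the 6 relations passed over the 10 P10 libraries. That the relations of the pairs are stronger than those across pairs was not tested.

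**Figure D4:**
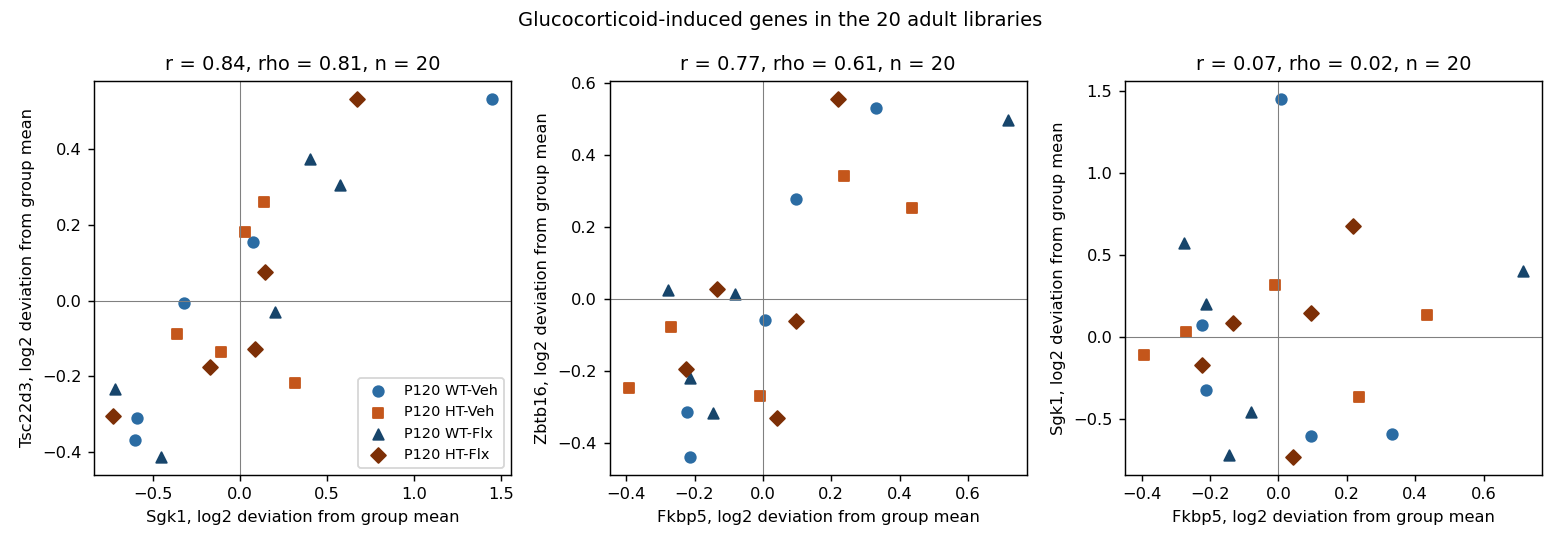
Log2 deviation from the group mean of Tsc22d3 against Sgk1, Zbtb16 against Fkbp5 and Sgk1 against Fkbp5 in the 20 P120 libraries, with a marker for each group. Libraries rise together in the first panel (r = 0.84) and the second (r = 0.77) and not in the third (r = 0.07).

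Marker sums were compared with the 4 induced members over the same libraries, 48 relations in all. Sgk1 and the sum of 10 microglia markers had r = -0.75 and rho = -0.75 (permutation p = 0.0001 and 0.00023, adjusted p = 0.00480 and 0.0110), and r = -0.64 without the 2 farthest libraries. It was the 1 relation past the threshold. Microglia sums ran from 8714 to 12108 in WT-Veh, 10485 to 15762 in HT-Veh, 8588 to 10518 in WT-Flx and 10539 to 16462 in HT-Flx. Their part in the Sgk1 values was not tested.

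Among 14401 genes with a mean of at least 50, those whose deviations over the 20 adult libraries were most like the mean of the 4 induced members were Hif3a (r = 0.90), Xdh (0.84), Gm19439 (0.83), Adipor2 (0.83) and Cdkn1a (0.81). Hif3a encodes a hypoxia-inducible factor subunit, Xdh xanthine dehydrogenase, Adipor2 an adiponectin receptor and Cdkn1a the cell cycle inhibitor p21. Hif3a and Cdkn1a are also on the list of other glucocorticoid-induced genes. After the correction r was 0.92, 0.73, 0.83, 0.70 and 0.82. For Nr3c1 the most alike were Dmtf1 (0.98), Ptprd, Appl1, Prkdc and Evi5 (each 0.97), with transcript GC contents of 40.9% to 43.8%, and r fell to between 0.14 and 0.24 after the correction. These are descriptions over 20 libraries that share their composition gradient.

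Other glucocorticoid-induced genes, 32 of 34 listed, were tested alongside the members. In WT, 25 were higher and 4 lower in adults than in pups, where 28.9% of all genes were higher and 29.4% lower, with a median log2 difference of 0.85 against -0.01 over all genes. Plin4, a lipid droplet coat protein, was higher by 4.63 (SE 0.201), Fam107a, an actin-binding protein, by 2.42 (SE 0.163) and Mt1, a metallothionein, by 1.74 (SE 0.104), with limma adjusted p of at most 8.16e-08. Angptl4, an inhibitor of lipoprotein lipase, was lower with -2.06 (SE 0.139) and Cdkn1a with -1.01 (SE 0.171). In HT, 22 were higher and 4 lower (25.8% and 25.3% of all genes), and Hif3a was among the lower, with -1.06 (SE 0.247, limma adjusted p = 0.00321). The correction left 25 higher and 3 lower in WT and 21 and 6 in HT.

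In HT-Flx against WT-Flx the same list had 16 genes higher and 6 lower (33.1% and 30.5% of all genes), with a median of 0.39 against 0.02 over all genes, and 9 and 4 after the correction. Cebpd, a transcription factor, had 1.16 (limma adjusted p = 8.90e-05) and 0.72 after the correction (adjusted p = 0.00628), Ucp2, a mitochondrial carrier, had 1.13 and 0.63, and the clock gene Per1 had 0.99 and 0.26, the last no longer past the threshold. Arrdc3 had -1.15, Sult1a1 -0.78 and Mertk, a phagocytic receptor kinase, -0.60, of which Mertk alone stayed past the threshold after the correction (-0.51, adjusted p = 0.0143). In the interaction 8 genes of the list were higher and 0 lower (15.8% and 11.5% of all genes), and 0 passed after the correction. In the comparisons at P10, of vehicle groups, and of fluoxetine with vehicle within a genotype, 0 of the 32 passed by limma.

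Receptor chaperones and coregulators, 16 of 16 tested, were split in HT-Flx against WT-Flx, with 6 higher and 7 lower (33.1% and 30.5% of all genes) and a median of 0.04. The phosphatase Ppp5c (0.76) and the cochaperone Fkbp4 (0.69) were higher, and the chaperone Hsp90aa1 (-1.21), the corepressor Nrip1 (-0.94) and the cochaperone Ppid (-0.88) were lower, each past the threshold with groups that did not overlap, as for 25.6% of all genes in the higher and 22.9% in the lower direction. After the correction 6 were higher and 6 lower, with Ppp5c at 0.21, Fkbp4 at 0.24, Hsp90aa1 at -0.50 and Ppid at -0.20 still past it, and Nrip1 at -0.0011 not. With age in WT, 7 were higher, among them the cochaperone Dnajb1 (0.62), and 3 lower, among them Nrip1 (-0.61), where 28.9% of all genes were higher and 29.4% lower. After the correction 9 were higher and 2 lower, with Dnajb1 at 0.59 and Nrip1 at -0.18 (adjusted p = 0.0439).

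Of 18 genes for stress hormones, their enzymes and their transport, 13 passed the low-value filter in the WT age comparison. Oxt, encoding oxytocin, was higher in adults by 1.84 in WT (SE 0.251) and 2.44 in HT (SE 0.257). Abcb1a, which carries corticosteroids from brain vessel cells back into the blood, was higher by 0.87 in WT and 0.61 in HT. Srd5a1 (-0.97 in WT, -0.89 in HT), a steroid reductase, and Cyp11a1 (-0.96 in WT), the first enzyme of steroid synthesis, were lower. In all, 4 were higher and 4 lower in WT (28.9% and 29.4% of all genes), and 3 and 5 after the correction. In HT-Flx against WT-Flx, 2 were higher and 3 lower (33.1% and 30.5% of all genes), and 0 and 2 after the correction. H6pd, which supplies cofactor to the Hsd11b1 enzyme, had 0.79 there and 0.15 after the correction, and Abcb1a had -0.98 and -0.41, the latter still past the threshold (adjusted p = 0.000748).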

How the data were processed

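Whole-brain polyadenylated RNA of 30 male mice was sequenced as paired ends, and per the labels and the study's methods the authors quantified reads with Salmon 1.1.0 on GRCm38 with GC bias correction, imported them with tximport and normalised them with DESeq2 1.30.1. The deposited signal is the estimated count divided by size factors. It is not whole, so depth is unknown and no count test was run. The GC bias option acts within a library, and a gradient with GC content between groups remained in the deposited values.

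Values were analysed as log2(value + 1) with limma 3.58.1 in R 4.3.3 (trended empirical Bayes, genes with a mean of at least 10, Benjamini-Hochberg over all genes at 0.05), with exact two-sided permutation tests over libraries for single members and 100000 resamples within groups for correlations. Fold changes on this scale understate those of low genes. Python 3.11.15, numpy 2.4.6, pandas 2.3.3, scipy 1.17.1 and matplotlib 3.10.9 were used. The fit was tested on simulated data. The GC and length correction subtracted, in each library, the mean deviation in bins of 10 GC by 10 length classes (GENCODE M21 transcripts). Each comparison was refitted with pseudocounts of 5 and 0.1, no filter, a minimum mean of 100, rescaling, no trend, a replicate block, all libraries in one fit, 4 or 5 vehicle libraries, and without each library.

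The 10 members and the gene lists were chosen with earlier results of these data known. From 3 lists (other glucocorticoid-induced genes; receptor chaperones and coregulators; stress hormones, enzymes and transport) the text names, per comparison, up to 3 genes with the largest difference in each direction among those past the threshold, with a mean of at least 50 and groups that do not overlap, and, for likeness, the 5 genes with the highest r. A gene that this rule names is not reported here. The labels do not say that replicate numbers mark shared litters or days, and in no comparison did every same-numbered pair correlate over 0.1, so the main fits have no block.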

Additional observations from a re-analysis of the deposited data

Results flagged for a closer look

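Of 60 groups of 5 libraries (10 genes by 6 groups), 5 held a library apart from the others by Dixon's ratio at its 95% critical value, where chance gives about 1 in 20. P10 HT replicate 1 was apart for Fkbp5, at 1425 normalised counts against 875 to 933 in the other 4, and for Crhr1, at 819 against 1061 to 1158. P120 WT-Veh replicate 5 was apart for Sgk1, at 6363 against 1530 to 2449, and for Crhr2, at 69.4 against 102 to 110. P120 WT-Flx replicate 5 was apart for Fkbp5, at 1804 against 905 to 1037. P10 HT replicate 1 was also highest of its group for Hif3a (884 against 407 to 467).

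The fluoxetine effect differed between genotypes for Nr3c1 (interaction -0.70 on the log2 scale, limma adjusted p = 0.0430) and for Crhr1 (0.92, limma adjusted p = 0.0353), in a comparison where 27.3% of all genes passed. Both calls were lost with the 4 vehicle libraries per group and after the GC and length correction.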

How the results depend on the processing

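With the GC and length correction (chosen after seeing the data), the Nr3c1 difference in HT-Flx against HT-Veh was 0.024, with and without the replicate block, that of Crhr2 in HT-Flx against WT-Flx -0.073, and the Nr3c1 interaction 0.020. It left 1 member past the threshold in HT-Flx against WT-Flx (2 with the block) in place of 5, 0 in the interaction in place of 2, and 5 in HT with age in place of 3. In one fit of all libraries, 5 passed in HT with age and 1 in HT-Flx against HT-Veh. Without the intensity trend, 1 passed in the interaction, and with 4 vehicle libraries per group 0. Without 1 library, counts ran from 0 to 1 in WT-Flx against WT-Veh, 3 to 5 in HT-Flx against WT-Flx, 0 to 2 in the interaction and 3 to 5 in HT with age. The cause of these changes was not tested. Co-variation kept 2 relations past the threshold under each alternative.

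The replicate block gave 1 member (Nr3c1, adjusted p = 0.0451) in HT-Flx against HT-Veh, 4 in HT-Flx against WT-Flx (without Crhbp, adjusted p = 0.0613) and 4 in HT with age, adding Fkbp5 (adjusted p = 0.0270). In HT-Flx and HT-Veh, deviations of same-numbered libraries correlated with a mean of 0.179 and those of other numbers with -0.044. The correlation was over 0.1 in 3 of 5 pairs, and 3 of 5 HT-Flx libraries correlated best with the HT-Veh library of their own number, a hint of pairing from the data and not from the design. As not every pair was over 0.1, the numbers were not treated as pairing the samples. Counts over all genes moved from 4 to 7 at P10 with the block, 0 in one fit and 9 with block and correction; in HT-Flx against HT-Veh from 0 to 1355, 5948 and 2; in HT-Flx against WT-Flx from 11330 to 6578 with the correction and 5439 with block and correction. In the interaction 4852 became 7637 in one fit and 0 with 4 vehicle libraries or the correction; in age by genotype 0 became 2 without the trend. Without 1 library the count ran from 0 to 1400 in WT-Flx against WT-Veh and from 0 to 7667 in the interaction. Stability was counted for 34 pairs of gene and comparison. Of their 364 values under other settings, 328 kept direction and side of the threshold and 6 reversed. Leaving out a library, 325 of 366 kept both and 0 reversed. Member values outside these 34 are not counted, and some of them reversed too. With the correction, Zbtb16 went from 0.10 to -0.35 in HT-Flx against WT-Flx, and Hsd11b1 from -0.21 to 0.19 in HT-Flx against HT-Veh.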
